A study of Mus musculus with 13 samples.

Results

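The peaks described here lie around Cga and Lhb, the mouse genes for the gonadotropin alpha subunit and for the beta subunit of luteinizing hormone. They were chosen as every peak that the deposited annotation names for Cga or Lhb, together with every peak whose centre lies within 100 kb of the start of either gene. This gave 294 of the 538751 peaks in 12 lists, 176 around Cga and 118 around Lhb. The annotation named 45 peaks for Cga and 7 for Lhb, and none of these 52 lay outside the 100 kb windows. The starts follow from where each peak is centred and how far the deposited annotation puts it from a start. This placed Cga (ENSMUSG00000028298) at base 34893788 of chromosome 4 and Lhb (ENSMUSG00000100916) at base 45420820 of chromosome 7, both on the plus strand.

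Chromatin immunoprecipitation and sequencing (ChIP-seq) was done on LβT2 cells, an immortalized mouse pituitary line of the gonadotrope type. Every library in the comparisons came from 1 stably transduced line that carried a lentiviral cassette with constitutive GFP and a doxycycline-inducible FLAG-tagged mouse FOXL2, so the vehicle cells carried the tagged FOXL2 as well. All cells had doxycycline for 48 h, after 24 h of recovery from plating, then spent 2 h in 2% serum and 1 h with either vehicle or 1 nM activin A, and were fixed with 1% formaldehyde. For each of 3 antibodies, against SMAD2/3, the FLAG tag (called FOXL2 below) and histone H3 acetylated at lysine 27 (H3K27ac), there were 2 vehicle and 2 activin libraries, each from 3 pooled plates. The title of the series names the control of Fshb, the beta subunit gene of follicle-stimulating hormone. The labels also describe a protein-A control library, which had no peak list, and the values therefore stand without a control measured alike.

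The alpha subunit encoded by Cga pairs with a hormone-specific beta subunit to form luteinizing hormone, follicle-stimulating hormone or thyrotropin, and Lhb encodes the beta subunit that makes luteinizing hormone distinct. In gonadotropes both genes respond to gonadotropin-releasing hormone, and the transcription factors known to act at them include NR5A1, EGR1, PITX1, LIM homeodomain factors and factors that bind cyclic AMP response elements. Activin binds receptors that phosphorylate SMAD2 and SMAD3, which then enter the nucleus. FOXL2 is a forkhead factor of gonadotropes that can bind DNA beside SMAD proteins, and H3K27ac marks active promoters and enhancers.

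The 250 bases before the RefSeq start of each gene are shown because SMAD2/3 peaks covered parts of both and the promoters held different sets of motif matches. They come from RefSeq's table for GRCm38.p6, with both genes matched by symbol, and are written 5′ to 3′ on the plus strand, at chr4:34893529-34893778 for Cga and chr7:45420696-45420945 for Lhb. Capitals mark the matches to the motifs listed after the sequences.
Cga: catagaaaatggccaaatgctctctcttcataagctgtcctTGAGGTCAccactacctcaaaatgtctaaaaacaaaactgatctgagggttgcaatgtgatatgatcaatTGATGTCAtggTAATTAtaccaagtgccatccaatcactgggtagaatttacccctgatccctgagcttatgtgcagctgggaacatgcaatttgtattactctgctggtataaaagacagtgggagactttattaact
Lhb: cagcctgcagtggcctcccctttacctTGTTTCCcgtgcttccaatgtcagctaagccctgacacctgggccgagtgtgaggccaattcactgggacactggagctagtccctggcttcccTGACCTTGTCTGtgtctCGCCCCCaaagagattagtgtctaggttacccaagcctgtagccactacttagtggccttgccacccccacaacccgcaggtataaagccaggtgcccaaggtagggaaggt

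The motifs were searched on both strands, and positions below are counted back from the RefSeq start. The Cga window held 2 matches to TGANGTCA, the pattern searched for cyclic AMP response elements, in which N is any base. They were TGAGGTCA at -209 to -202 and TGATGTCA at -139 to -132. The first ends in AGGTCA, as does the NR5A1 motif CAAGGTCA, which had no full match in the Cga window. TGANGTCA was found in 7.25% of the 21262 RefSeq promoter windows of the same length. TAATTA, a core bound by LIM homeodomain factors, stood at -128 to -123 of Cga and in 4.30% of all windows. The Lhb window held TGACCTTG, which is the NR5A1 motif CAAGGTCA on the minus strand, at -129 to -122, a motif of 1.14% of windows. Overlapping it by its first base, at -122 to -118, was GTCTG, the SMAD box CAGAC on the minus strand, which 40.8% of windows held. The EGR motif CGCCCCC, present in 19.5% of windows, followed at -112 to -106 of Lhb, and the forkhead motif TGTTTNC, present in 16%, matched as TGTTTCC at -223 to -217. In neither window was there a match to the SMAD palindrome GTCTAGAC (0.183% of windows), the PITX motif TAATCC (5.81%) or the GATA motif GATAA (20.5%). A match describes letters and not a bound site. Only the letters given were searched, so the lack of a match does not show that a factor has no site there.

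The depth of each library is unknown, since peak files carry no read totals, and list lengths stand in for it. The SMAD2/3 lists of the vehicle libraries were 605 and 144 peaks long, those of the activin libraries 7784 and 5970, FOXL2 lists 83834 to 97701 and H3K27ac lists 38995 to 41763. Percentile rank here means the position of a peak in its library's list when sorted by −log10 q, the strongest being 100. Ranks from lists of unequal length show no change between them, which bears most on SMAD2/3. Fold enrichment is the authors' linear ratio of a peak over a background that is not described, and its differences between lists were not tested. The cell type was checked at gene starts. H3K27ac lay within 1 kb of the start in all 4 libraries for 7 of the 8 gonadotrope markers whose start could be worked out, Cga and Lhb among them, and for 5 of the 6 others, beside 46.4% of 14523 gene starts. Fshb had no such peak in any library. H3K27ac was found in no library at the starts of Pomc and Pax7, markers of corticotropes and melanotropes. The same held for Ghrhr, Prl and Tshb, markers of the growth hormone, prolactin and thyrotropin cells. Tbx19, Gh and Pou1f1, the other markers listed for these cells, had no start that could be worked out and were not checked.

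SMAD2/3 peaks were seen at the start of Cga in all 4 libraries and at the start of Lhb in both activin libraries and neither vehicle library. Within 100 kb of Cga there was 1 SMAD2/3 peak in each vehicle library, against 8 and 6 in the activin libraries. The means were 1 ± 0 and 7 ± 1.41 (SD, n = 2 each), a difference of 6 peaks, and the groups did not overlap. Within 100 kb of Lhb the counts were 0 and 0 with vehicle against 2 and 2 with activin, which again did not overlap. How often SMAD2/3 counts around other gene starts were apart in this way was not worked out. A SMAD2/3 region of both activin libraries lay within 100 kb of 37.8% of 14523 gene starts. An exact permutation test (two-sided, 6 ways to label 4 libraries) gave p = 0.333 for each gene, the smallest value that it can give, and p = 0.667 after Benjamini-Hochberg adjustment over the 6 comparisons of counts. The activin lists as a whole were longer too, and the part of list length in these counts was not tested further than by equal lengths. With each SMAD2/3 list held to its 144 strongest peaks, the difference at Cga turned to -1, because the Cga promoter peak was among those 144 in both vehicle lists and in neither activin list, and the difference at Lhb was 0.

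**Figure D1:**
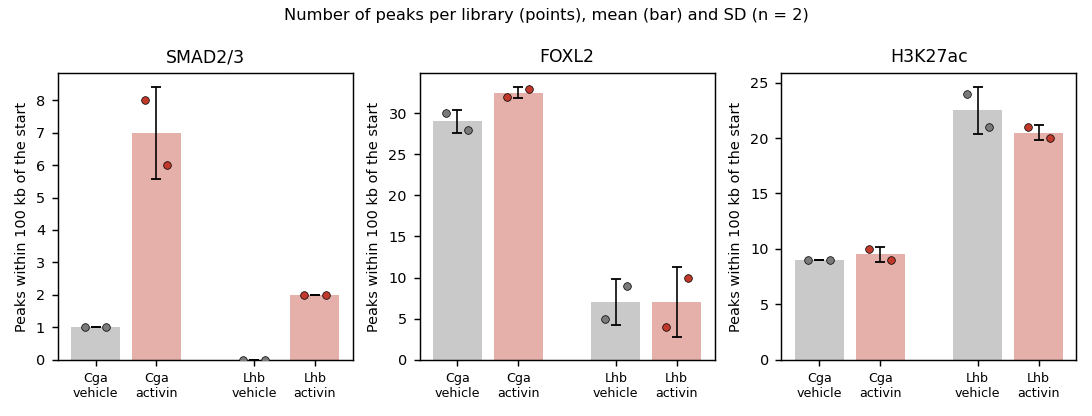
Number of peaks whose centre lies within 100 kb of the start of Cga or Lhb, for SMAD2/3, FOXL2 and H3K27ac (panels); points are libraries, bars are means and error bars are the SD (n = 2 per treatment). The SMAD2/3 counts of the activin libraries (8 and 6 at Cga, 2 and 2 at Lhb) lie above those of the vehicle libraries, while the FOXL2 and H3K27ac counts at Lhb overlap.

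Peaks of the 4 libraries of an antibody that shared at least 1 bp were merged into regions. Around Cga there were 8 SMAD2/3 regions, of which 5 were found in both activin libraries and neither vehicle library (activin-only), 1 in all 4 libraries, 2 in activin replicate 1 alone and none in the vehicle libraries alone. Around Lhb both SMAD2/3 regions were activin-only. Of all 8602 SMAD2/3 regions, 54% belonged to the activin-only class, 0.0233% to the vehicle-only class and 1.53% had a peak in all 4 libraries. Activin-only was thus the most common class of this antibody over the genome as well. Of the regions called in both activin libraries, 6 lay within 100 kb of Cga, where the median over 14523 gene starts was 0 and 0.310% of starts had as many. The 2 regions at Lhb were matched or exceeded at 15.2% of starts. Neighbouring starts share peaks in these shares.

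The SMAD2/3 region at the Cga promoter ran from base 34893273 to 34893926 of chromosome 4, with its middle 0.189 kb upstream of the start. Its fold enrichment, 7.15 and 6.22 in the vehicle libraries, was 13.7 and 11.2 after activin. All 4 libraries had the peak, and both activin values lay above both vehicle values. Vehicle libraries gave it a −log10 q of 18.4 and 12.1, activin libraries 58.6 and 36.2, again without overlap. How many other regions in all 4 libraries had fold or −log10 q apart in this way was not worked out. The percentile ranks were 86.1 and 69.4 with vehicle against 96.1 and 91.1 with activin. Such an order of ranks, both activin above both vehicle, was found in 90.9% of the 132 SMAD2/3 regions present in all 4 libraries (the reverse in 1.52%), so the order at Cga is that of nearly all such regions. By place, the peak stood at 85 of 605 and 45 of 144 in the vehicle lists and at 305 of 7784 and 535 of 5970 in the activin lists.

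A SMAD2/3 peak within 1 kb of the start in all 4 libraries was found at 8 of 14523 gene starts, or 0.0551%, and Cga was among them. The other seven were Psma2 and Mrpl32, which share the peak, and Ccny, Syt7, Cdc42bpa, Cenpu and Ubr4. These names were read from the list after its values were known. Of the 8 starts, Cga and Cdc42bpa also had a FOXL2 peak in all 4 libraries. Among starts with a SMAD2/3 peak within 1 kb, the peak at Cga was outranked at 8 of 69 and 3 of 12 starts in the vehicle libraries and at 3 of 182 and 6 of 145 in the activin libraries.

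Close to Cga, 3 of the activin-only SMAD2/3 regions lay within 5 kb of its start. The region 4.07 kb upstream, intergenic at bases 34889552 to 34889892, had fold enrichments of 6.37 and 5.88 and ranks of 83.3 and 77.1 in the activin libraries. The next, 3.62 kb upstream at 34890021 to 34890322, had folds of 6.0 and 4.92. In the second intron of Cga, 2.02 kb downstream of the start at 34895612 to 34896003, the folds were 6.47 and 6.54 and the ranks 74.9 and 64.7. All 3 were in the middle or upper part of the activin lists and without a peak in either vehicle list.

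Farther from Cga, the region 24.0 kb downstream, intergenic and nearest to the annotated gene Gm12361, had SMAD2/3 folds of 7.63 and 4.32 with activin. The region 72.1 kb downstream, in an intron of Gm12364, had folds of 5.82 and 5.61 and lay lower in the lists, at ranks 35.8 and 28.4. Regions 24.8 and 73.6 kb downstream were called in activin replicate 1 and in no other library. None of the SMAD2/3 regions lay more than 5 kb upstream of Cga.

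**Figure D2:**
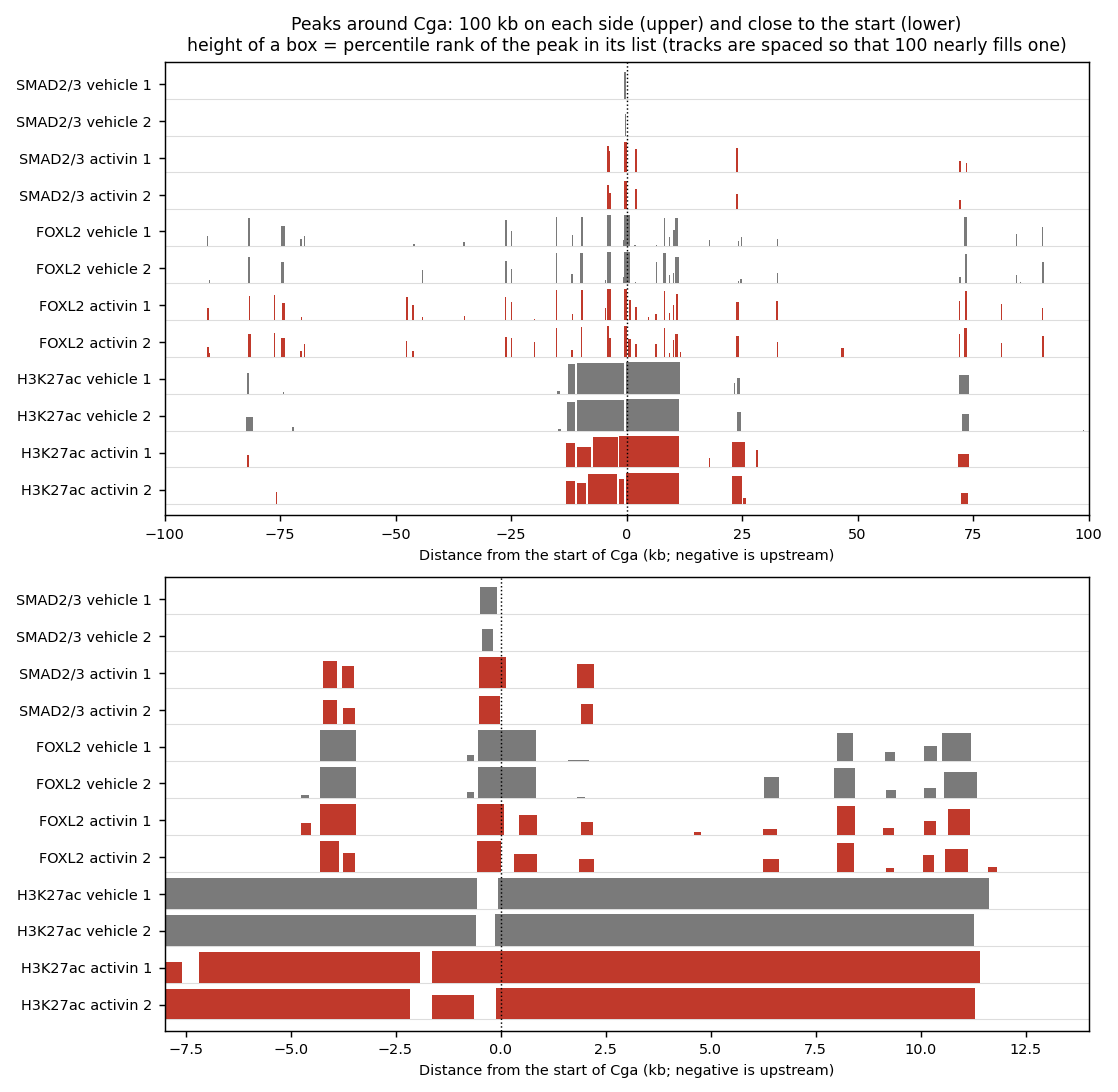
Peaks around Cga in the 12 libraries, with 100 kb on each side of the start in the upper panel and the region close to it in the lower; the x axis is the distance from the start in kb, each track is a library (grey vehicle, red activin) and the height of a box is the percentile rank of the peak in its list. SMAD2/3 boxes number 1 in each vehicle track and 8 and 6 in the activin tracks, and the broad H3K27ac boxes are interrupted just upstream of the start in 3 of the 4 tracks.

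At Lhb the SMAD2/3 region ran from base 45420755 to 45421007 of chromosome 7, over the start itself. The fold enrichments in the activin libraries were 3.14 and 3.96, the −log10 q values 15.5 and 23.1 and the ranks 66.0 and 82.1. By fold the peaks ranked much lower in the same lists, at 4.30 and 14, so that a low ratio went with a high significance. A SMAD2/3 peak within 1 kb in both activin libraries was found at 0.751% of gene starts, and in both activin and no vehicle library, as at Lhb, at 0.599%. In the activin lists, 51 of the 182 and 20 of the 145 starts with such a peak outranked Lhb.

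The summit of the Lhb peak was at base 45420880 in both activin libraries, 66 bp before the RefSeq start and inside the printed sequence, of which the peak covered 76.4%. The printed NR5A1, SMAD box and EGR matches lie within the peak, and the forkhead match lies before it. The strongest summits of the 2 activin libraries fell on the same base in 66 of 5162 SMAD2/3 regions, or 1.28%, and were 22.5 bp apart in the median region. The other SMAD2/3 region near Lhb lay 9.60 kb upstream, in the second exon of Kcna7 and nearest to the start of Ntf5, at 45411059 to 45411386. Its folds were 6.83 and 4.43 and its ranks 69.7 and 20.3, so the activin libraries differed widely there.

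**Figure D3:**
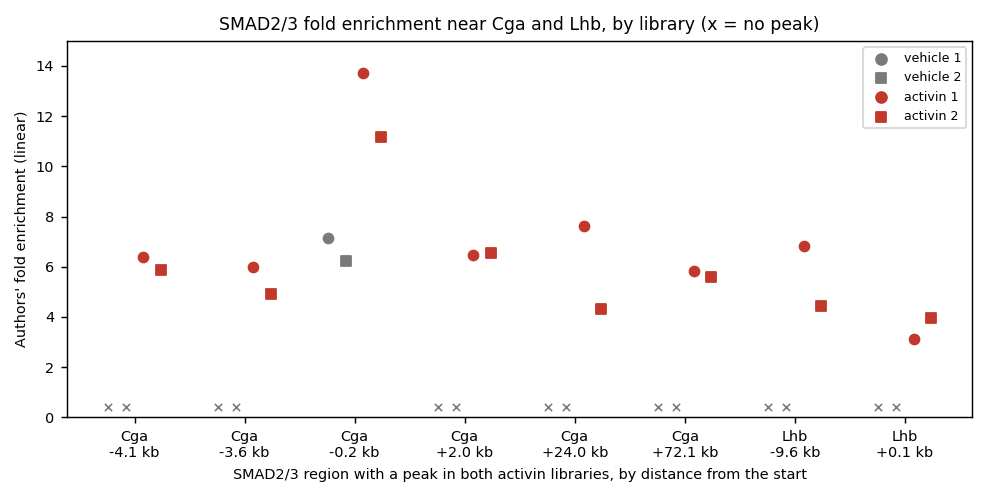
The authors' SMAD2/3 fold enrichment (linear axis) in the 8 regions near Cga and Lhb that both activin libraries called, by distance from the start; points are libraries and a cross marks a library with no peak. The Cga promoter region (7.15 and 6.22 with vehicle, 13.7 and 11.2 with activin) is the region with a point for the vehicle libraries, and the Lhb promoter region has the lowest activin folds shown.

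FOXL2 stood on the Cga promoter in all 4 libraries, near the very top of each list, and was found at the Lhb promoter in none. At Cga the vehicle libraries had fold enrichments of 42.3 and 30.8 and the activin libraries 47.5 and 43.2, for the region from base 34893229 to 34894662. The activin values lay above the vehicle values, and the difference between the means was smaller than the gap between the vehicle libraries. The peak took place 96 and 430 in the vehicle lists and 31 and 23 in the activin lists. In 3 libraries, all but vehicle replicate 2, no start with a FOXL2 peak within 1 kb (1831, 1908 and 2397 starts) outranked Cga, and in vehicle replicate 2 there were 7 of 2515 that did. A FOXL2 peak within 1 kb in all 4 libraries was found at 8.08% of starts. The vehicle peaks ran on to 34894639 and 34894622 as 1 interval, whereas in the activin lists the strong peak ended at 34893880 and 34893799 and a separate, weaker FOXL2 peak followed 0.651 and 0.596 kb downstream of the Cga start.

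Within 100 kb of Cga there were 30 and 28 FOXL2 peaks with vehicle, compared with 32 and 33 with activin. The means were 29 ± 1.41 and 32.5 ± 0.707 (SD, n = 2 each), which did not overlap, and the exact permutation test gave its smallest p, 0.333, and an adjusted p of 0.667. The lists with activin were also longer. With FOXL2 lists of equal length the difference at Cga was 2.5 and the groups overlapped. Within 50 kb of Cga it was 1.5 and with peaks named for Cga alone it was 1, each with exact permutation p = 0.667. How often counts around other gene starts were apart was not worked out. Within 100 kb of Lhb the counts were 5 and 9 with vehicle against 4 and 10 with activin, equal in their mean of 7 (exact permutation p = 1). The replicates of each treatment therefore differed more at Lhb than the treatments did.

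Merged, the FOXL2 peaks around Cga made 41 regions, of which 19 were in all 4 libraries. In both activin libraries 27 FOXL2 regions lay near Cga, where the median start had 7 and 2.44% of starts had as many. Around Lhb there were 13 FOXL2 regions, 3 of them in all 4 libraries, and 4 in both activin libraries, a number that 75.2% of starts reached. Over the genome 46.8% of 124781 FOXL2 regions were in all 4 libraries, 8.95% were activin-only and 3.22% vehicle-only. At Cga 3 regions were activin-only and 3 vehicle-only, and at Lhb there was none of either class. The activin-only count near Cga was 7 without vehicle replicate 1 and 5 without activin replicate 1, since fewer libraries then had to meet the rule. None of the FOXL2 regions in all 4 libraries near Lhb was nearer than 60.2 kb to its start. They lay 88.0 kb upstream by Trpm4, 60.2 kb downstream by Dhdh and 90.0 kb downstream by Tulp2, and in each the vehicle and activin ranks overlapped.

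Of the 19 FOXL2 regions of Cga in all 4 libraries, 5 had both activin ranks above both vehicle ranks, 6 had the reverse and 8 overlapped. Genome-wide the first order was found in 29.9% of 58444 regions and the second in 28.1%, and the 2 orders were about as common near Cga as each other. The first order held for 9 regions without vehicle replicate 2 and for 8 without activin replicate 1, and the second for 8 in either case. The FOXL2 region that ranked next to the promoter, and just above it in vehicle replicate 2, lay 3.87 kb upstream of the Cga start, with folds of 25.6 and 24.4 with vehicle against 22.0 and 19.9 with activin. Both vehicle values were higher there, and the ranks stayed between 98.5 and 99.5. In the second intron of Cga, 1.92 kb downstream, the folds were 2.93 and 2.62 with vehicle against 4.44 and 5.03 with activin, and the ranks 4.37 and 2.99 against 40.9 and 41.6. At 24.0 kb downstream the ranks were 17.0 and 7.09 with vehicle, compared with 57.6 and 65.6 with activin, and at 32.6 kb 21.6 and 30.7 against 61.7 and 46.6. These 3 FOXL2 regions, low in the vehicle lists, ranked higher in both activin lists, and the first and second of them overlapped activin-only SMAD2/3 regions. The FOXL2 region 3.87 kb upstream, where both vehicle ranks were higher, overlapped 2 activin-only SMAD2/3 regions as well.

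In some other strong FOXL2 regions near Cga the ranks of the treatments overlapped, and in others they did not. The region 9.71 kb upstream ranked 93.5 and 94.4 with vehicle against 94.3 and 95.2 with activin, and that in the body of Cga, 8.19 kb downstream, 89.8 and 95.3 against 91.8 and 92.2. FOXL2 at these places was thus near the top of the lists with either treatment. Both vehicle ranks were higher 73.4 kb downstream, at 93.8 and 94.2 against 92.8 and 90.8 with activin. The same order held 81.7 kb upstream, at 89.0 and 82.4 with vehicle against 75.9 and 74.3 with activin. They are among the 6 regions of that order, beside 5 with the reverse. The activin-only FOXL2 regions lay 76.2 and 19.9 kb upstream, both in introns of Zfp292, and 81.1 kb downstream in an intron of Mob3b. The farther of the Zfp292 regions ranked 78.0 and 77.1 in the activin lists, while the nearer ranked 1.85 and 48.4. Of the vehicle-only regions the nearest to Cga lay 0.716 kb upstream of its start, at ranks 18.5 and 19.6.

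**Figure D4:**
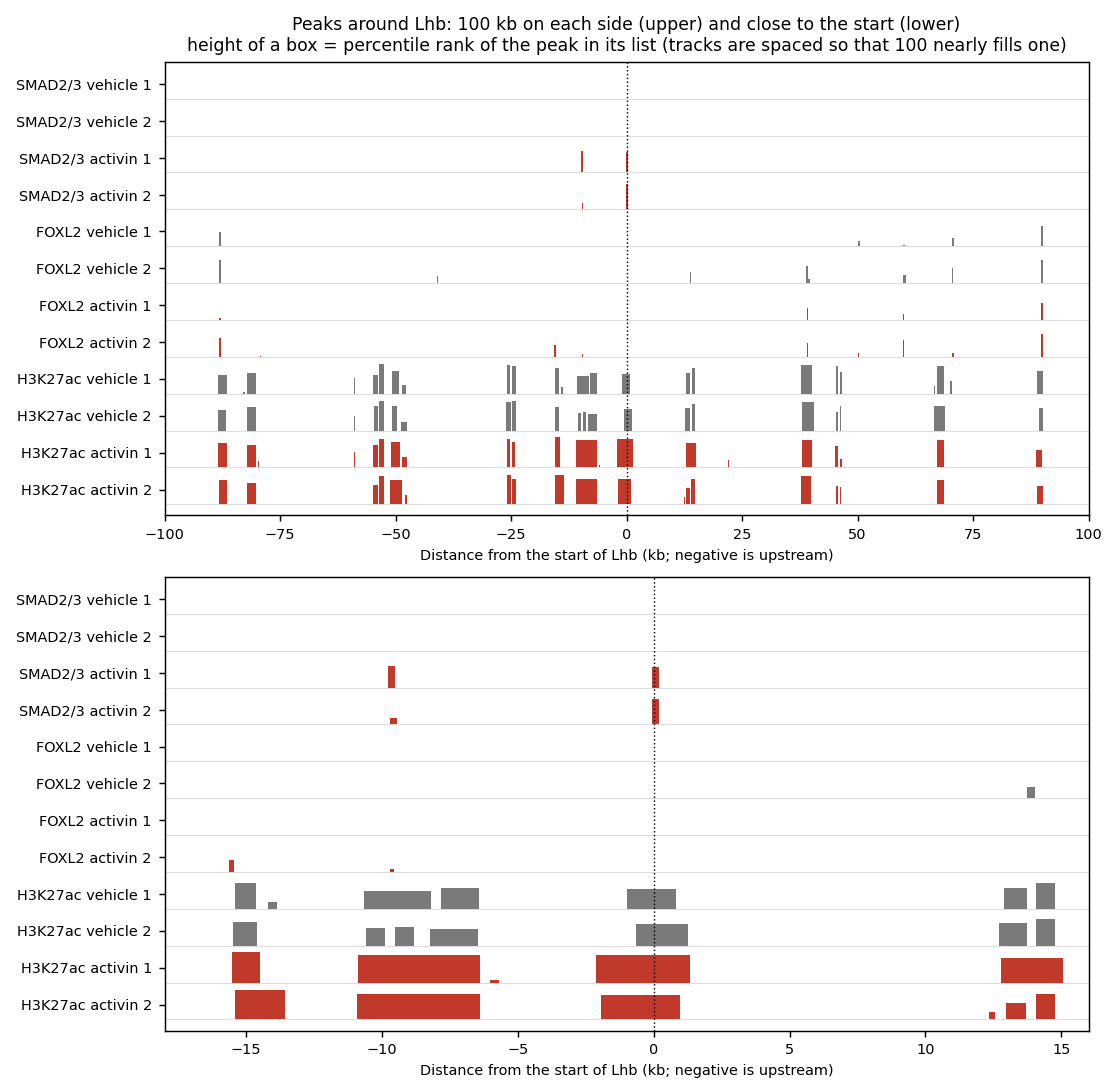
Peaks around Lhb in the 12 libraries, with 100 kb on each side of the start in the upper panel and the region close to it in the lower; the x axis is the distance from the start in kb, each track is a library (grey vehicle, red activin) and the height of a box is the percentile rank of the peak in its list. SMAD2/3 boxes stand at the start and 9.60 kb upstream in the activin tracks, no FOXL2 box lies at the start, and the H3K27ac boxes over the start are taller and wider in the activin tracks.

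H3K27ac covered the Cga gene with some of the strongest peaks of each list and was weaker, though present in all 4 libraries, at the Lhb start. At Cga the merged domain ran from base 34883072 to 34905423, and its strongest peak had folds of 9.66 and 9.35 with vehicle against 8.68 and 8.92 with activin. Both vehicle ranks, 99.840 and 99.839, were above the activin ranks, 99.306 and 99.469. Among gene starts with an H3K27ac peak within 1 kb, which in all 4 libraries was the case for 46.4%, Cga was outranked at 14 of 7445 and 11 of 7310 with vehicle and at 52 of 7417 and 43 of 7221 with activin.

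The H3K27ac peaks at Cga left a gap over the site where SMAD2/3 and FOXL2 had their summits. In vehicle replicate 1 no peak covered the bases between 34893218 and 34893725, in vehicle replicate 2 those between 34893208 and 34893650, and in activin replicate 2 those between 34893162 and 34893691. In activin replicate 1 a single H3K27ac peak, 34892164 to 34905208, ran across. The SMAD2/3 summits at the Cga promoter lay between 34893404 and 34893468 in the 4 libraries and the FOXL2 summits between 34893433 and 34893523, all inside that stretch.

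Within 100 kb of Cga the number of H3K27ac peaks was 9 and 9 with vehicle against 10 and 9 with activin, which overlap (means 9 and 9.5, exact permutation p = 1). Around Lhb it was 24 and 21 with vehicle, compared with 21 and 20 with activin, also overlapping (means 22.5 ± 2.12 and 20.5 ± 0.707, SD, n = 2 each, exact permutation p = 0.667, adjusted p = 1). Leaving out vehicle replicate 1 took that difference from -2 to -0.5, and leaving out vehicle replicate 2 instead gave -3.5. Of 13 H3K27ac regions around Cga 4 were in all 4 libraries, and of 24 around Lhb 16 were. Over the genome 45.9% of 53008 H3K27ac regions were in all 4 libraries, 5.84% were activin-only and 6.79% vehicle-only. Near Cga none was activin-only and 1 was vehicle-only, and near Lhb neither class was found. Peaks near Lhb were annotated to several other genes, among them Ruvbl2, Ntf5, Kcna7, Bax and Ftl1, and the 16 H3K27ac regions there in both activin libraries compare with a median of 5 over all starts, a number reached at 3.30% of them. The 4 such regions of Cga were reached at 62.2% of starts.

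H3K27ac around the Lhb start had higher ranks and folds in both activin libraries than in either vehicle library. The region over the start, 45418690 to 45422140, had folds of 3.38 and 3.33 with vehicle against 5.51 and 4.43 with activin. Its ranks were 64.1 and 67.7 against 89.4 and 79.6. The H3K27ac peak over the Lhb start was also wider with activin, at 3451 and 2942 bp, than with vehicle, at 1820 and 1905 bp. The next regions upstream of Lhb that all 4 libraries shared showed the same order. In the region nearest to the start of Ntf5, 8.65 kb upstream, the ranks were 67.6 and 59.7 with vehicle against 88.9 and 81.3 with activin. In that nearest to the start of Kcna7, 14.5 kb upstream, they were 81.9 and 74.5 against 97.4 and 94.4. These orders in single regions were not tested. How many other H3K27ac regions in all 4 libraries had folds or widths apart as at the Lhb start was not worked out.

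The same order was not general over the Lhb neighbourhood. Of its 16 H3K27ac regions in all 4 libraries, 5 had both activin ranks above both vehicle ranks, 6 had the reverse and 5 overlapped. Genome-wide these orders made up 26.4% and 31.2% of 24356 regions. Near Cga the split was 1 to 3. The exception near Cga lay 24.3 kb downstream, under the SMAD2/3 region described above, with folds of 3.30 and 3.35 with vehicle against 4.72 and 5.76 with activin and ranks of 50.1 and 59.5 against 81.4 and 89.9. In contrast, the H3K27ac region 12.2 kb upstream of Cga had folds of 7.63 and 6.42 with vehicle, compared with 5.18 and 4.93 with activin. That 72.9 kb downstream had ranks of 61.2 and 53.8 against 41.5 and 35.3, and it also lay under SMAD2/3, at the activin-only region 72.1 kb downstream. The domain over Cga overlapped 4 SMAD2/3 regions, and there too both vehicle ranks were above both activin ranks.

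SMAD2/3 and FOXL2 shared sites at Cga and not at the Lhb promoter. All 6 SMAD2/3 regions near Cga with a peak in both activin libraries overlapped, by at least 1 bp, a FOXL2 region and an H3K27ac region with a peak in both activin libraries. Over the genome the same held for 3183 of 5162 such SMAD2/3 regions, or 61.7%. The 6 were not separate cases, since 4 lay in the single H3K27ac domain over Cga and 2 shared the FOXL2 region 3.87 kb upstream. At the Cga promoter the SMAD2/3 and FOXL2 summits of the same replicate number were 54 and 55 bp apart with vehicle and 49 and 18 bp apart with activin. They were 1 and 7 bp apart at the region 4.07 kb upstream of Cga, 27 and 15 bp in its second intron, and 30 and 13 bp at 72.1 kb downstream. At 24.0 kb downstream of Cga the summits were farther apart, by 323 and 253 bp, and at 3.62 kb upstream they were 461 and 82 bp apart. The 461 bp, in activin replicate 1, is the distance to the FOXL2 summit already used for the region 4.07 kb upstream. In that library a single FOXL2 peak, 34889492 to 34890340, spanned both SMAD2/3 peaks. All 4 SMAD2/3 summits at the Cga promoter lay 311 to 375 bp before the RefSeq start and the FOXL2 summits 256 to 346 bp before it, so all were upstream of the printed sequence although the peaks covered 28 to 100% of it.

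At the Lhb promoter no FOXL2 peak lay within 1 kb in any library, and the nearest FOXL2 summit was 39017 bp from the SMAD2/3 summit in the first activin library and 9671 bp from it in the second. At the Kcna7 exon upstream of Lhb a FOXL2 peak was present in activin replicate 2 and in no other library, at rank 9.92. SMAD2/3 in both activin libraries with FOXL2 and H3K27ac in all 4, as at Cga, was found at 0.434% of gene starts. The combination at Lhb, SMAD2/3 in both activin libraries and H3K27ac in all 4 without any FOXL2 peak, was found at 10 starts, or 0.0689%. Psma2, Mrpl32 and Ubr4 were again among these 10, with Fam49b, Usp37, Elmsan1, Vsig10, Gm11733 and Gm26529, all named after their values were seen. The absence of a called FOXL2 peak at Lhb says that none passed the authors' threshold at an unknown depth.

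The other genes of gonadotropin synthesis and its control were set beside the pair. Starts could be worked out for 10 of 11 listed genes, all but Lhx3. SMAD2/3 within 1 kb in both activin libraries was found at 2 of these 10, in each case with no vehicle peak, as at Lhb. They were Gnrhr, the receptor for gonadotropin-releasing hormone, at ranks 91.3 and 86.8, and Pitx1, which encodes a homeodomain factor of the pituitary, at 37.8 and 4.36. FOXL2 in all 4 libraries was found at 2 of the 10, Gnrhr and Gata2, and H3K27ac in all 4 at 8, beside the 8.08% and 46.4% of all starts given above. The beta subunit genes Fshb and Tshb, whose products pair with that of Cga, had no peak of any of the 3 antibodies within 1 kb of the start. Within 100 kb, 8 of the 10 genes had a SMAD2/3 region in both activin libraries, beside 37.8% of the 14523 starts.

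**Figure D5:**
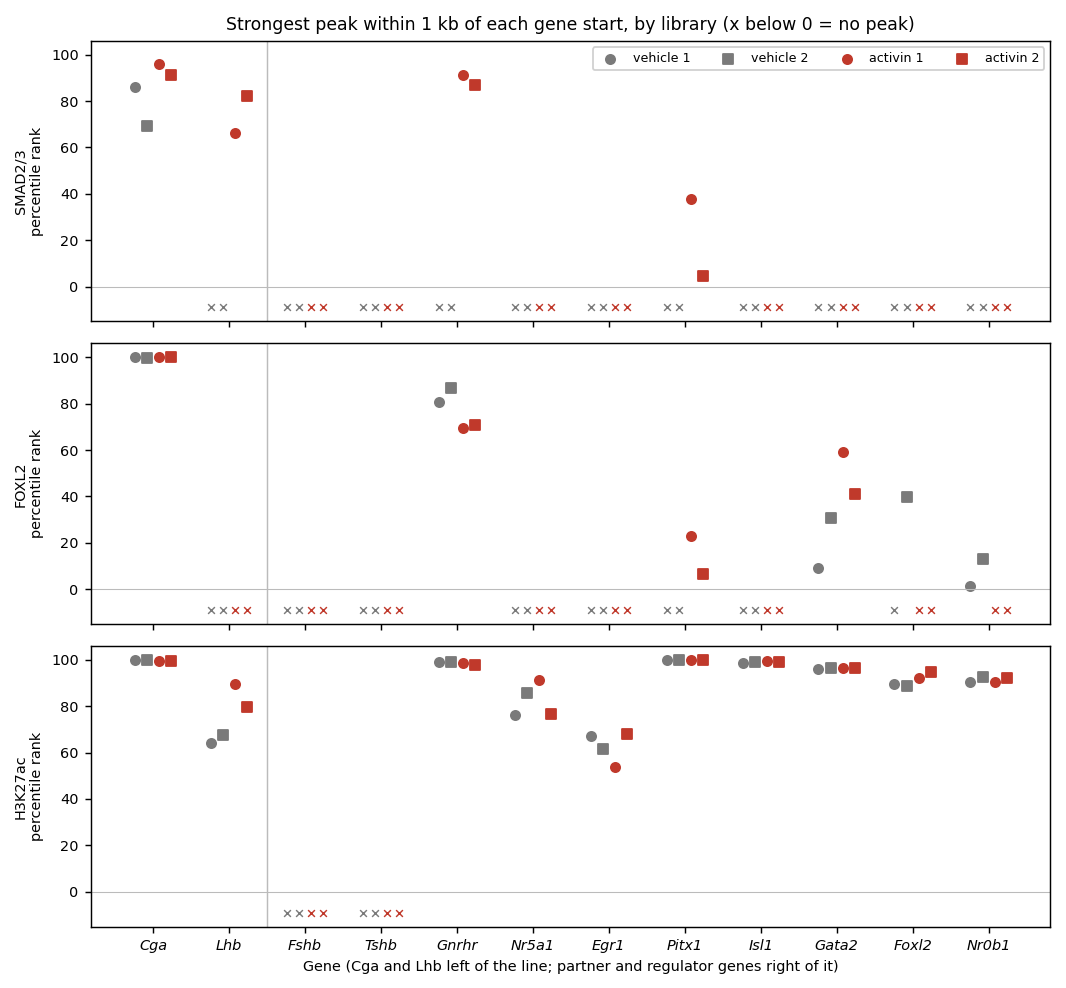
Percentile rank of the strongest peak within 1 kb of the start of Cga, Lhb and 10 partner or regulator genes, for SMAD2/3, FOXL2 and H3K27ac (panels); points are the 2 vehicle (grey) and 2 activin (red) libraries and a cross marks a library with no peak. Cga has points in all 12 libraries and Lhb in 6, with crosses for SMAD2/3 in the vehicle libraries and for FOXL2 throughout.

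Genes were also compared by the best percentile rank within 100 kb in each of the 12 libraries, with 0 for no peak, and likeness measured as the mean absolute difference between such profiles. Starts within 200 kb of the gene itself were left out. Most like Cga were Plekha3 and Ttn, which share their peaks, at a mean difference of 2.05 rank points, and Ctxn2 at 2.52, where the median gene was 35.7 away. Most like Lhb were Kcnj15 at 3.39, Pdgfb at 3.43 and Dhdds at 3.47, with a median of 21.5. The likeness describes 12 libraries and a window that often holds several genes.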

How the data were processed

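ChIP-seq peaks of 12 LβT2 libraries were analysed, 2 vehicle and 2 activin libraries for each of 3 antibodies. The labels call the samples duplicates and name no separate cultures or batches, so p-values measure only the spread between these samples, which may be technical. Reads of 50 bp, per the labels' protocols, were processed with Bowtie2, MACS2 and HOMER against GRCm38 (mm10), per the submitters' processing notes, and the versions, parameters and use of the control are not given in the sources used here. Peaks were called per library, narrow for SMAD2/3 and FOXL2 and broad for H3K27ac, as the peak names and layout of the deposited lists show. The deposited columns are the authors' fold enrichment (linear ratio), the authors' −log10 of p and q, and a score, 10 times −log10 q cut to a whole number, which was not used. HOMER's annotatePeaks gave a gene name, a class and the distance in bp to the nearest start, per the file headers.

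Gene starts were derived from peak centre and distance where at least 2 peaks agreed (14523 starts). Of 13310 also in RefSeq's GRCm38.p6 table, 99.985% were on the same chromosome, and 43.7% lay within 100 bp of the RefSeq gene end at which the gene begins. The derived start was 9 bp downstream of the RefSeq start for Cga and 126 bp upstream for Lhb. Distances to a gene in the report are from the derived start unless RefSeq is named. Peaks sharing at least 1 bp were merged into regions per antibody, and ranks were by −log10 q. Coordinates are counted from 1. Numbers of peaks were tested by exact permutation of the 6 labellings, two-sided, adjusted by Benjamini-Hochberg over 6 comparisons. Regions, ranks and gene starts were described without a test, beside the share of all regions or starts. The scripts were tested on simulated peaks. Alternatives were a −log10 q of at least 5, lists of equal length, a 50 kb window, peaks named for the gene, a 50% overlap, ranks by fold, leaving out each library and a replicate block. RefSeq starts were added after seeing the data.

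The members, gene lists and motifs were chosen with earlier results of these data known. Genes named are Cga and Lhb, the annotated neighbours of their peaks, a list of 11 partner and regulator genes (1 further listed gene is not reported here), pituitary markers and the 3 genes of the most similar profile. No unmatched column of sample values was present. Python 3.11.15, pandas 2.3.3, numpy 2.4.6 and matplotlib 3.10.9 were used.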

Additional observations from a re-analysis of the deposited data

How the results depend on the processing

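With SMAD2/3 lists of equal length the difference in peak number turned to -1 at Cga and was 0 at Lhb, since the peaks near these genes lay below place 144 in the activin lists. The FOXL2 difference at Lhb, 0 in the lists as deposited, was -2 with equal lengths and -1.5 among peaks whose −log10 q reached 5, and the H3K27ac difference at Lhb turned to 0.5 with peaks named for Lhb alone. At a −log10 q of at least 5, 2 H3K27ac regions near Cga and 1 FOXL2 region near Lhb were in all 4 libraries. Within 50 kb, 1 FOXL2 region near Cga was activin-only, none near Lhb was in all 4 libraries, and 10 H3K27ac regions near Lhb were. Differences that kept their sign also changed in size. With peaks named for the gene alone the SMAD2/3 difference was 3 at Cga and 1 at Lhb. At Cga the FOXL2 difference was 1 that way, 1.5 within 50 kb and 6 at a −log10 q of at least 5, and the H3K27ac difference was 1.5, 2 and 1.5. With lists of equal length the FOXL2 difference at Cga was 2.5, and the groups overlapped. At Lhb the H3K27ac difference was -0.5 within 50 kb and -3.5 at a −log10 q of at least 5. Ranked by fold, 1 FOXL2 region near Lhb had both activin ranks higher.

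Leaving out each library in turn, the FOXL2 difference ran from 2.5 to 4.5 at Cga and from -3 to 3 at Lhb, and the H3K27ac difference from 0 to 1 at Cga and from -3.5 to -0.5 at Lhb, the last 2 values each without 1 vehicle library. Activin-only regions numbered 4 to 7 for FOXL2 at Cga and 0 to 3 for FOXL2 at Lhb and for H3K27ac at either gene. FOXL2 regions with both activin ranks higher numbered 5 to 9 at Cga and 0 to 1 at Lhb. Those with both vehicle ranks higher numbered 7 to 9 at Cga and 0 to 2 at Lhb. The cause of these shifts was not tested, apart from the looser rule with fewer libraries. The SMAD2/3 difference ran from 5 to 7 at Cga and stayed at 2 at Lhb.

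Deviations of same-numbered libraries were at most weakly correlated across regions (-0.04 for SMAD2/3, 0.13 for FOXL2 and -0.03 for H3K27ac). With 2 libraries per treatment this cannot settle whether the replicate numbers pair the libraries. With a replicate block the differences were 6 and 2 for SMAD2/3, 3.5 and 0 for FOXL2 and 0.5 and -2 for H3K27ac at Cga and Lhb, as without it, with exact sign-flip p-values of 0.5 or 1, where 0.5 is the smallest possible.

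With RefSeq starts, chosen after seeing the data, 0.0286% of 17491 starts had SMAD2/3 and 5.30% FOXL2 in all 4 libraries. Unknown read depth limits every absence of a peak.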
